A study of Mus musculus with 14 samples.

Results

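The proteins of the cytosolic ribosome were followed at the RNA level in mouse PiC neurons of both sexes. The set was chosen by symbol: every gene named Rpl or Rps with a number and at most 1 letter after it, together with Rplp0, Rplp1, Rplp2 and Rpsa, with symbols marked as pseudogene copies left out. It holds 83 of the 55401 genes counted, 32 by name of the small subunit and 51 of the large subunit. By gene type 80 are protein-coding, and 3 (Rps4l, Rpl32l and Rpl6l) are of a pseudogene type. The rule misses some genes, among them Rps3a1, Fau and Rpl36al, which encode ribosomal proteins under other names, and these are given separately.

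RNA was sequenced from 14 tubes, each holding 4 to 5 EGFP-labelled neurons of wild-type C57BL/6 mice. The cells had been drawn into a micropipette with a tip of 60 to 100 µm, and their polyadenylated RNA was amplified with SMART-Seq2, which covers transcripts along their length. All mice carried a retrograde adeno-associated virus, AAVretro-EGFP, 0.1 µl per injection, which enters axon ends and labels the cell bodies that send them. The virus was placed either in MeA or in PrL, so that PiC neurons are grouped by the target they were labelled from. PiC, PrL and MeA are written as the labels have them. The groups were male PiC-MeA neurons (n = 3), female PiC-MeA neurons (n = 3), male PiC-PrL neurons (n = 4) and female PiC-PrL neurons (n = 4). No age is given, the labels name no promoter for EGFP, and they do not say whether tubes came from separate animals. P-values therefore measure only the spread between these samples, which may be technical. Because each tube holds few cells, fewer cells and less RNA per cell cannot be told apart.

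A ribosome joins a small subunit, which reads the mRNA, and a large subunit, which forms the peptide bond. Most of its proteins are needed in about equal number in the finished particle. Many of the mRNAs begin with a C followed by a tract of pyrimidines, the TOP motif, through which mTORC1 and Larp1 set their translation. In neurons ribosomes are also found in dendrites and axons, where they serve local protein synthesis. Levels of these mRNAs say nothing about how many ribosomes a neuron holds.

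Promoter sequence was available from RefSeq for 61 of the 83 genes, as 73 windows of 300 bases that end 50 bases after an annotated start. A C at the annotated start followed by at least 4 pyrimidines (C or T, read on the sense strand) was present in 19.2% of these windows, against 2.51% of all 32851 promoter windows. The letters CCGGAAG on either strand were present in 35.6% of the windows, against 8.86% of all. GCCATNTT on either strand was present in 20.5%, against 6.05% of all. TATAA on the sense strand in the 50 bases before the start was present in 5.48%, against 4.93% of all. Some genes, such as Rpl19 and Rps19, have more than 1 window for alternative starts, so shares of windows are not shares of genes. GCCATNTT, for example, was in 15 windows of 11 genes. Matches are descriptions of letters and not of binding. On the opposite strand CCGGAAG reads CTTCCGG, which can overlap a pyrimidine tract. The 30 bases from 10 before to 20 from the annotated start are shown for 6 genes to which the results return: Rps6, Rpl26, Rpl6 and Rpl41, which are among the members with the smallest p-values below, and Rpl15 and Rps27, the steadiest members over the 14 libraries. Capitals mark runs of at least 6 pyrimidines, and coordinates are in GRCm38.p6.
Rps6 (chr4:86857348-86857377, minus strand): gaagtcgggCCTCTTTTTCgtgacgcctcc
Rpl15 (chr14:18270967-18270996, minus strand): agaaagCCTTCTTCCTTTCCTCTggcggca
Rps27 (chr3:90213629-90213658, minus strand): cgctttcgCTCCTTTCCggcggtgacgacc
Rpl26 (chr11:68901556-68901585, plus strand): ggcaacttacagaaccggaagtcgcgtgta
Rpl6 (chr5:121204491-121204520, plus strand): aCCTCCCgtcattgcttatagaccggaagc
Rpl41 (chr10:128549149-128549178, minus strand): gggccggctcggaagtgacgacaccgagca
In Rps6, Rpl15 and Rps27 a pyrimidine tract runs across the annotated start, whereas in Rpl26, Rpl6 and Rpl41 no such tract covers it in these windows. Windows of some other genes named below were read but are not printed. Such a tract covers the start in Rpl7a and Rps9, and does not in Rpl13a, Rpl19 and Rps19. Of the genes with a tract, all male PiC-MeA libraries lay below all female PiC-MeA libraries in Rps6, Rpl15, Rpl7a and Rps9, but not in Rps27. Of those without, this held for Rpl26, Rpl6, Rpl41, Rpl19 and Rps19, but not for Rpl13a. A link between tract and level was not tested.

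The labels call the cells neurons. Of 8 pan-neuronal markers, 6 had counts in every group, with a summed level of 9181 to 11433 CPM (counts scaled to a common total, here the library total) in male PiC-MeA, 9000 to 11210 in female PiC-MeA, 13539 to 16227 in male PiC-PrL and 10534 to 16026 in female PiC-PrL libraries. The remaining markers, Tubb3 and Nefl, were listed at 0 in every library. A listed 0 by itself does not show that a marker's RNA was absent, since genes inside other genes were often at 0, as given below. Libraries held 6132985 to 15392217 counts, and the male PiC-MeA libraries held the fewest (6132985 to 10572618, against 11755389 to 15392217 in the other 11). The 3 male PiC-MeA libraries stood apart: they had 18964 to 20014 genes with a count, against 12479 to 14908 in the other 11, and 204 to 268 olfactory receptor genes with a count, against 39 to 78. The summed level of all 1117 olfactory receptor genes ran from 519 to 1346 CPM in the male PiC-MeA group, against 4.66 to 71.6 CPM elsewhere. Astrocyte markers had counts for 9 of 9 genes and summed to 1961 to 2466 CPM in male PiC-MeA libraries, against 7 of 9 genes (Aqp4 and Gjb6 at 0) and 771 to 912 CPM in female PiC-MeA libraries, 1931 to 4833 CPM in male PiC-PrL and 1620 to 2297 CPM in female PiC-PrL libraries. Inhibitory neuron markers (9 of 9 genes with counts in male PiC-MeA, 8 of 9 in female PiC-MeA, where Slc32a1 was at 0) summed to 225 to 3634 CPM in male and 46.8 to 264 CPM in female PiC-MeA libraries. In male PiC-PrL libraries they summed to 102 to 431 CPM (9 of 9 genes), and in the female PiC-PrL group to 275 to 5264 CPM (8 of 9, with Slc32a1 at 0). Endothelial and mural markers summed to 20.9 to 98.2 CPM in male PiC-MeA libraries (4 of 5 genes, Cldn5 at 0) and 0.389 to 2.75 CPM in female PiC-MeA libraries (3 of 5, Cldn5 and Pdgfrb at 0). In male PiC-PrL libraries they summed to 15.8 to 133 CPM (3 of 5, Cldn5 and Pdgfrb at 0), and in female PiC-PrL libraries to 0.580 to 106 CPM (4 of 5, Cldn5 at 0). The summed levels of excitatory neuron, oligodendrocyte, oligodendrocyte precursor, microglial and red blood cell markers in male PiC-MeA libraries overlapped those of female PiC-MeA libraries. The part of these differences in the results below was not tested.

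Ribosomal protein genes took a smaller share of the counts in male PiC-MeA neurons than in any other group. The share was 0.673%, 0.684% and 0.384% in the male PiC-MeA libraries, against 1.02%, 0.840% and 0.864% in female PiC-MeA libraries, 1.01%, 0.812%, 0.825% and 0.914% in male PiC-PrL libraries, and 0.825%, 0.7998%, 0.860% and 0.809% in female PiC-PrL libraries. All 3 male PiC-MeA libraries lay below the other 11, and the third lay lowest. The group means were 0.580 ± 0.170%, 0.909 ± 0.100%, 0.890 ± 0.0913% and 0.824 ± 0.0265% in the same order (SD, n = 3, 3, 4 and 4). The exact (Clopper-Pearson) 95% interval was 0.379% to 0.389% in the third male PiC-MeA library, which has the fewest counts, and covers counting error only.

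The share of counts on mitochondrially encoded genes was 4.796%, 9.23% and 15.3% in male PiC-MeA libraries, against 3.29% to 3.95% in female PiC-MeA libraries, 3.81% to 8.39% in male PiC-PrL and 4.57% to 12.2% in female PiC-PrL libraries. With mitochondrially encoded genes taken out of the total, the ribosomal protein share was 0.707%, 0.753% and 0.454% in male PiC-MeA libraries, still below the 0.854% to 1.07% seen in the other 11. Within the ribosomal protein counts, small subunit genes held 38.7%, 41.1% and 41.3% in male PiC-MeA, 38.6%, 36.3% and 37.2% in female PiC-MeA, 39.8%, 38.1%, 40.5% and 41.9% in male PiC-PrL and 41.4%, 37.5%, 39.1% and 37.8% in female PiC-PrL libraries. The balance between the subunits thus lay between 36.3% and 41.9% everywhere, and male PiC-MeA libraries overlapped the PiC-PrL libraries in it. All male PiC-MeA libraries lay above all female PiC-MeA libraries, though narrowly (lowest male 38.68%, highest female 38.55%). In the plot of shares by library, male PiC-MeA libraries were also lowest for the mitochondrial ribosomal proteins, which build the separate ribosome inside mitochondria but are encoded in the nucleus. Their share was 0.369%, 0.346% and 0.232% in male PiC-MeA libraries, against 0.406% to 0.589% elsewhere.

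**Figure D1:**
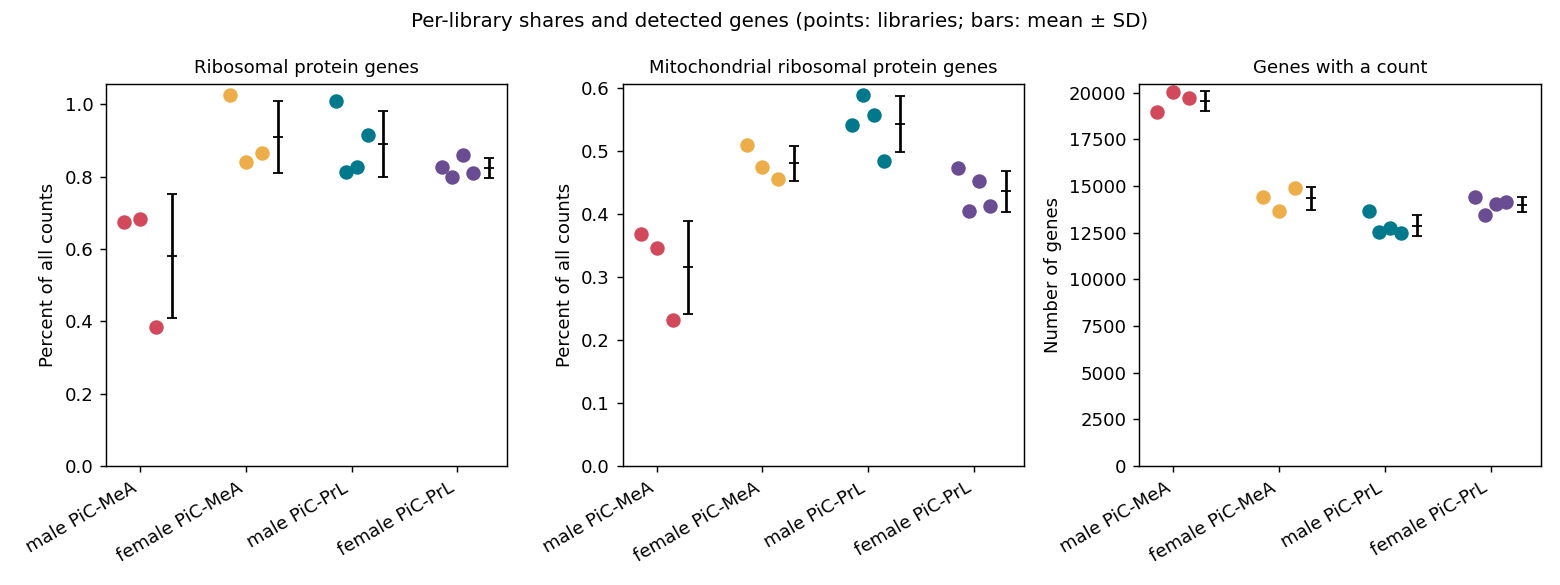
Percent of all counts on cytosolic ribosomal protein genes (left), on mitochondrial ribosomal protein genes (middle) and number of genes with a count (right) in the 14 libraries, by group, with the mean ± SD beside the points. The male PiC-MeA libraries sit lowest in both shares (0.384% to 0.684% for cytosolic ribosomal proteins) and highest in detected genes (18964 to 20014).

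Not every ribosomal protein gene could be followed. The filter on low counts kept 73 of the 83, 30 of the small and 43 of the large subunit, of which 68 had at least 10 counts in all 14 libraries. The 10 that were not tested were Rpl10l, Rpl13, Rpl24, Rpl32l, Rpl35, Rpl35a, Rpl39l, Rpl3l, Rps10 and Rps4l. Rpl13, Rpl24, Rpl35, Rpl35a, Rps4l, Rpl32l and Rpl10l were listed at 0 in all 14 libraries. Among the untested genes Rpl13, Rpl24, Rpl35, Rpl35a and Rps10, which had 5 counts in all, encode core proteins of the ribosome.

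Most of these low genes lie within the span of another annotated gene. In GENCODE M21 (GRCm38), Rpl13 (8:123102350-123105244) lies wholly inside the span of Gm20388 on the same strand, Rpl35 (2:39001580-39005624) inside Wdr38 on the opposite strand and Rpl35a (16:33056453-33060189) inside Gm17106 on the opposite strand. Rpl24 (16:55966275-55971435) has 98.7% of its span inside Gm28037, and Rps10 (17:27630418-27636669) has 98.1% inside other genes, among them RPS10-NUDT3. Of all protein-coding genes whose whole span lies inside other genes, 1251 of 1340 (93.4%) were listed at 0 in every library, against 1831 of 11693 (15.7%) of those with no such overlap. A 0 or a low count of a covered gene therefore does not show that its RNA was absent, and how a read that lies in more than 1 gene was counted is not stated. The same limit applies to Rpl13a, which has 88.6% of its span inside Gm45713.

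**Figure D2:**
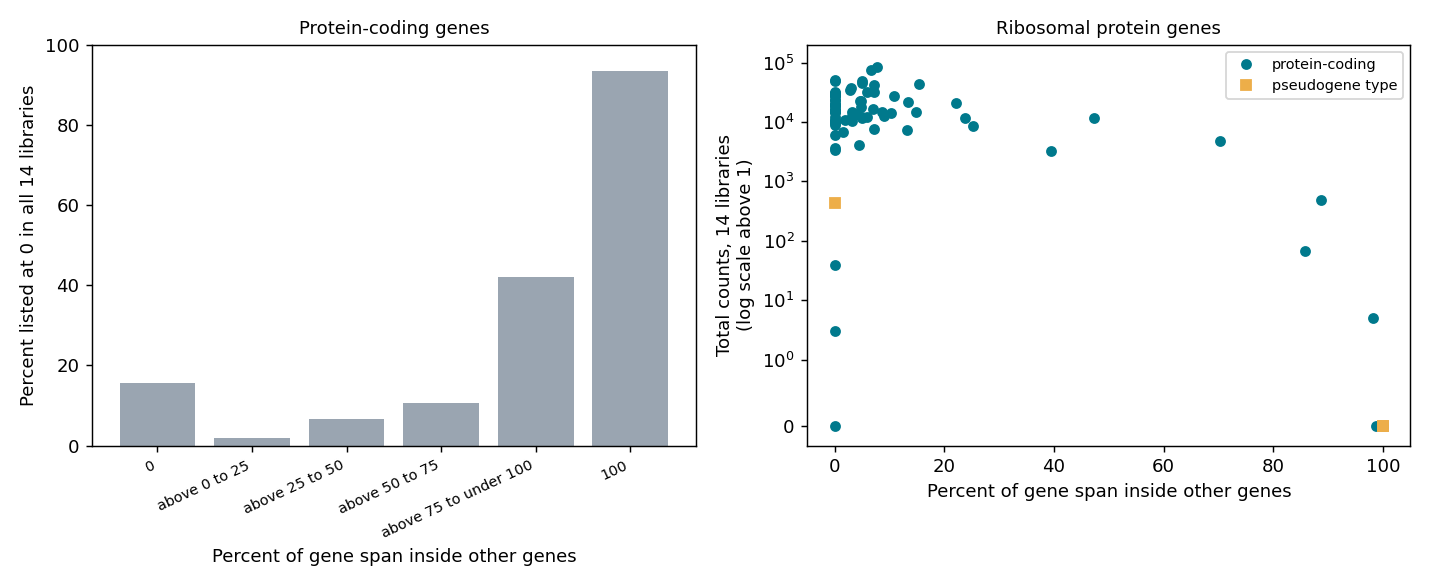
Left, percent of protein-coding genes listed at 0 in all 14 libraries, by how much of the gene's span lies inside other annotated genes. Right, total counts of each of the 83 ribosomal protein genes against the same percentage, where genes at 100% are at 0 and 4 points at 0% (Rpl10l, Rpl39l, Rpl3l and Rpl6l) are low without overlap.

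Other low members have no such overlap. Rpl10l, an intronless copy of Rpl10 that is known from mouse testis, was at 0 in all libraries, where 3 counts are the highest level a count of 0 allows. Rpl39l, the testis-enriched relative of Rpl39, had 3 counts in all. Rpl3l, the relative of Rpl3 known from skeletal muscle and heart, had 40 counts in all, 27 of them in male PiC-MeA replicate 2. Rpl3, by contrast, had 145 to 997 CPM in each library. Tissue-restricted relatives were thus near or at 0, while their widely expressed partners were measured in every library. Rps27l, a relative of Rps27 known as a p53 target, differed from the others: it had 13.4, 24.5 and 19.2 CPM in male PiC-MeA, 23.4, 7.18 and 23.7 CPM in female PiC-MeA, 31.4, 27.7, 33.6 and 34.2 CPM in male PiC-PrL, and 28.6, 0.276, 15.05 and 0.0702 CPM in female PiC-PrL libraries. It was nearly missing from 2 female PiC-PrL libraries and present in all others.

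Per length, the 73 tested genes differed widely in level although the finished particle holds about equal numbers of most of its proteins. The mean level over the 14 libraries, in TPM, which scales counts by exon length and then to a common total, had a median of 149 TPM and was highest, at 999.8 TPM, for Rplp1. The 5 highest were Rplp1, a stalk protein (999.8 ± 370.4 TPM), Rpl41, the shortest ribosomal protein (711 ± 234 TPM), Rpl4, which lines the exit tunnel (685 ± 227 TPM), Rpl19 (611 ± 284 TPM) and Rps15 (599.5 ± 202 TPM; SD, n = 14 for each). Among the lowest were Rps15a (26.6 TPM), Rpl22 (19.7 TPM), Rpl6l (8.07 TPM) and Rpl13a (4.22 TPM). Exon length here joins the exons of all annotated transcripts, 499 bases for Rplp1 and 6270 bases for Rps15a. The order thus depends on the annotated lengths as well as on the counts. With only the exon bases outside other genes as the length, the same 10 genes were highest, and Rpl13a came to 18.2 TPM. Neighbours in the order overlapped in their range over the libraries, as the plot of levels shows.

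**Figure D3:**
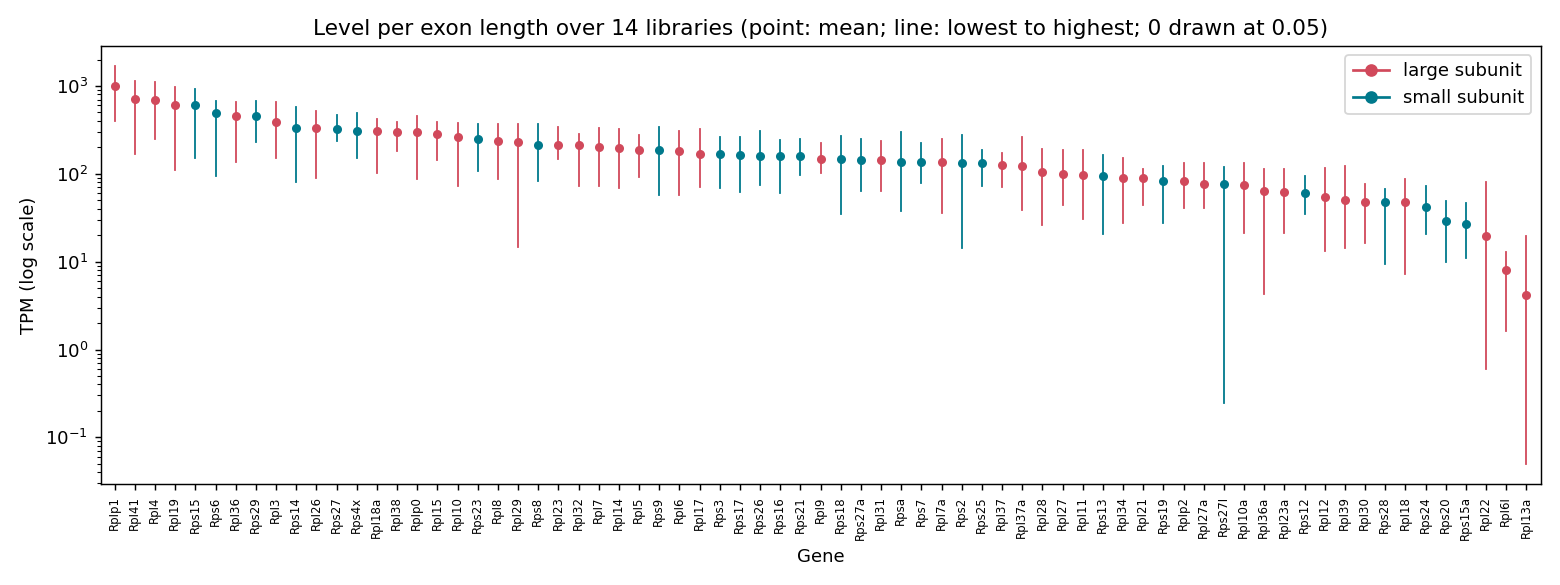
Level per exon length (TPM, log scale) of 71 of the tested ribosomal protein genes, from highest to lowest mean, with lines from the lowest to the highest of the 14 libraries and colours for the subunit. Means run from 999.8 TPM (Rplp1) to 4.22 TPM (Rpl13a), and large and small subunit genes are mixed along the order.

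The genes were also unequal in steadiness. The SD of log2 CPM over the 14 libraries had a median of 0.70 over the tested ribosomal protein genes, against 2.29 over all 14599 genes tested, which include many of lower level. Rpl15 (SD 0.32), Rps27 (0.33), Rpl37 (0.37), Rps21 (0.41) and Rps25 (0.43) varied least. Rpl15, a large subunit protein, had 185, 158 and 173 CPM in male PiC-MeA, 280, 287 and 258 CPM in female PiC-MeA, 239, 239, 233 and 292 CPM in male PiC-PrL, and 262, 159, 270 and 188 CPM in female PiC-PrL libraries. Even this gene was lower in all male PiC-MeA than in all female PiC-MeA libraries.

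Rps27l (SD 2.31), Rpl13a (2.30), Rpl22 (1.79), Rpl29 (1.25) and Rpl36a (1.18) varied most. Rpl22, a large subunit protein that also binds other RNAs, had 9.95, 10.97 and 8.37 CPM in male PiC-MeA, 19.5, 36.4 and 6.56 CPM in female PiC-MeA, 9.9999, 57.0, 3.54 and 0.831 CPM in male PiC-PrL, and 4.43, 21.5, 69.7 and 1.47 CPM in female PiC-PrL libraries. Its spread within each PiC-PrL group was wider than any difference between groups. Rpl29 had 77.8, 27.3 and 5.05 CPM in the male PiC-MeA libraries and 57.5 to 141 CPM in the other 11. One library, male PiC-MeA replicate 3, carries most of that spread.

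**Figure D4:**
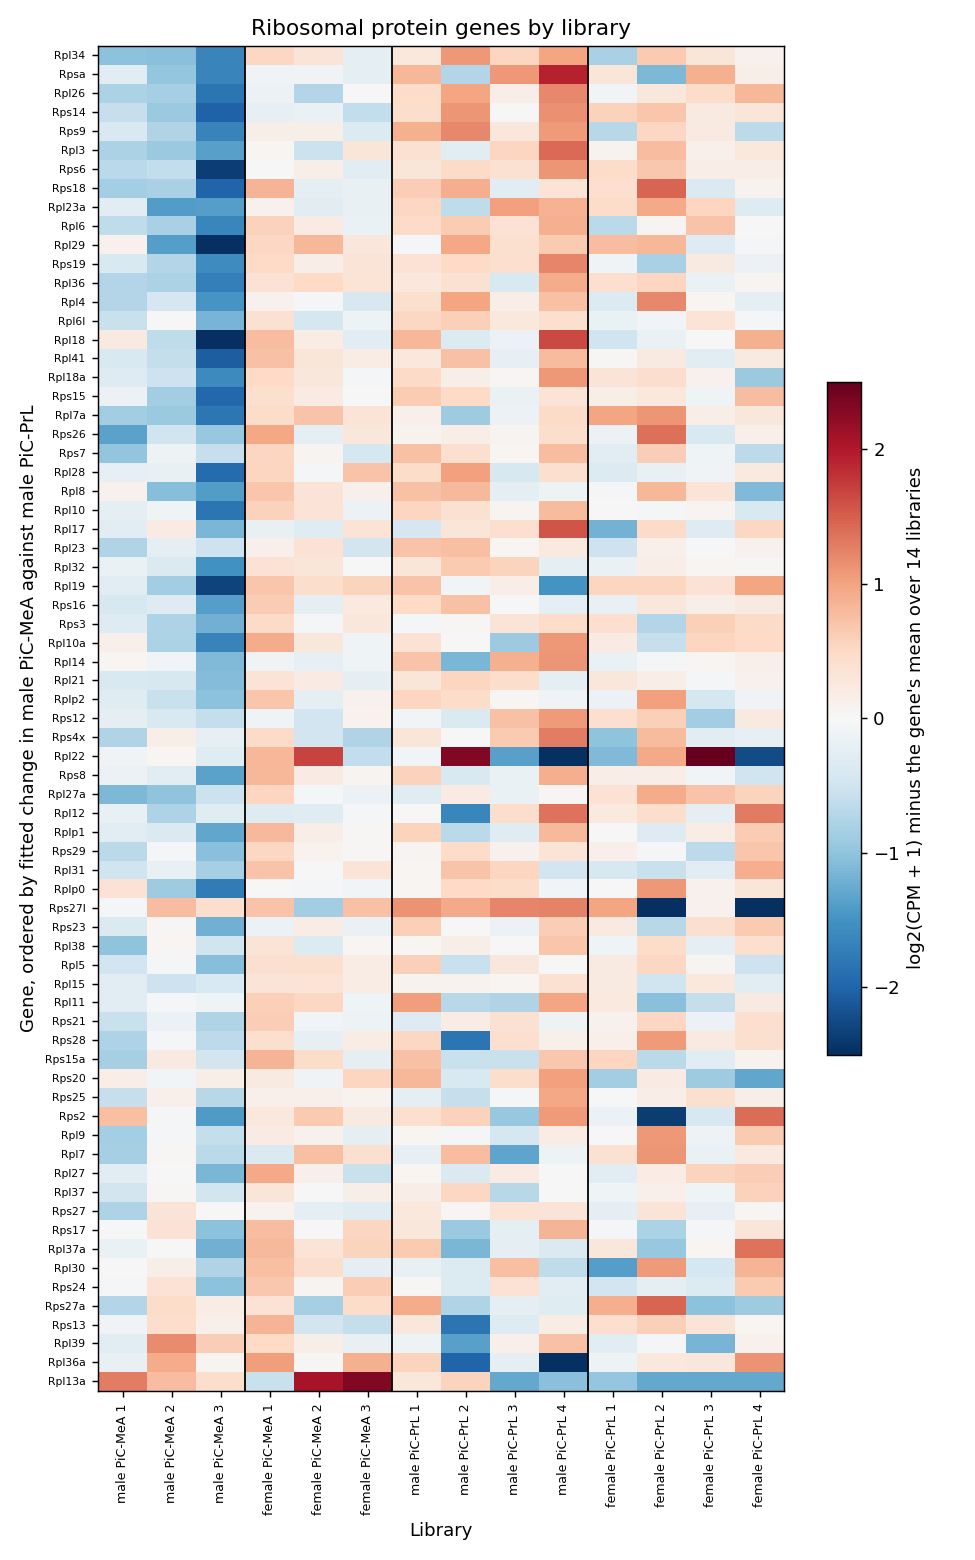
Heat map of log2(CPM + 1) of 71 of the tested ribosomal protein genes (rows) in the 14 libraries (columns), each minus the gene's mean, with colours capped at 2.5 either way and rows ordered by the fitted change between male PiC-MeA and male PiC-PrL neurons. Blue fills most of the 3 male PiC-MeA columns and is deepest in replicate 3, while Rpl22, Rps27l, Rpl36a and Rpl13a at middle and bottom vary within groups.

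The lower level ran through most of the set and was deepest in 1 library. Relative to each gene's own mean over all libraries, the median log2 deviation of the tested ribosomal protein genes was -0.33, -0.23 and -1.15 in male PiC-MeA replicates 1 to 3, and lay between -0.0035 and 0.58 in the other 11 libraries. The gene was below its own mean for 61, 52 and 66 of the 73 genes in those 3 libraries.

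The comparison of male with female PiC-MeA neurons asks whether the sexes differ within the neurons labelled from MeA. The fitted log2 change, male minus female, was negative for 69 of the 73 ribosomal protein genes, with a median of -0.78, against a median of 0.12 over all genes tested, of which 46.4% were negative. The median was -0.69 over small subunit and -0.84 over large subunit genes. In 36 of 73 genes all male libraries lay below all female libraries (49.3%, where this holds for 8.76% of all genes tested), and in 0 of 73 all male libraries lay above (17.5% of all genes). Some genes pass the filter on low counts through the male PiC-MeA libraries. Those libraries had 14157 to 15517 genes with at least 10 counts, against 7619 to 10819 in the others. Such genes can raise the shares of all genes above, and the medians of all genes, here and below. By edgeR's quasi-likelihood test with Benjamini-Hochberg adjustment over all genes, 0 ribosomal protein genes passed an adjusted p of 0.05, where 0.0% of all genes did. At an unadjusted p under 0.05 there were 10 of 73 genes (13.7%, against 12.4% of all genes), and at the adjusted threshold DESeq2 called 3 (Rpl34, Rpl36 and Rpl7a) and limma voom called 2 (Rpl19 and Rpl41), with none in common. These are 3.95% of the 76 members that DESeq2 tested, against 5.83% of all genes, and 2.74% of the 73 in limma voom, against 11.9% of all genes. DESeq2 was run without the filter on low counts and tested 24596 genes. Its shares of all genes, here and below, include genes that the filter removes and can be lower for that reason. Leaving out each library in turn gave medians of -1.05 to -0.62. When detected genes, whose number is high in all male PiC-MeA libraries, entered the fit as a covariate, the median was -0.21 and 45 of 73 genes were negative. No other library reaches that number (18964 to 20014 genes, against 12479 to 14908). The fit can therefore hardly tell this covariate from the group, here and below.

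The members with the smallest p in this comparison were of the large subunit. Rpl41 had 195, 168 and 60.5 CPM in male and 423, 315 and 287 CPM in female PiC-MeA neurons. All male libraries lay below all female ones, and the log2 change was -1.27 ± 0.45 (SE; adjusted p = 0.298 by edgeR). Rpl19 had 145, 95.1 and 34.2 CPM in male and 283, 235 and 258 CPM in female PiC-MeA neurons, a log2 change of -1.50 ± 0.56 (adjusted p = 0.313 by edgeR). Rpl6 had 111, 97.6 and 55.1 CPM in male and 260, 200 and 153 CPM in female PiC-MeA neurons, a log2 change of -1.22 ± 0.47 (adjusted p = 0.318 by edgeR). Rpl7a had 37.9, 36.4 and 19.3 CPM in male and 97.1, 115 and 88.9 CPM in female PiC-MeA neurons, a log2 change of -1.68 ± 0.68 (adjusted p = 0.331 by edgeR). The groups did not overlap in any of these 4 genes, and none passed the adjusted threshold. With that covariate the change of Rpl41 was 0.10 and that of Rpl6 was 0.33.

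The 4 genes with a positive fitted change were Rpl39, Rps13, Rps27 and Rps27l, and each overlapped between the sexes. Rpl39, a small protein at the exit tunnel that is X-linked, had 17.3, 49.4 and 32.9 CPM in male and 30.2, 23.5 and 18.7 CPM in female PiC-MeA neurons. Rps13 had 72.8, 105 and 84.4 CPM in male and 140, 55.6 and 50.4 CPM in female PiC-MeA neurons. Rps27 had 63.4, 137 and 108 CPM in male and 116, 91.6 and 88.7 CPM in female PiC-MeA neurons. In these genes male PiC-MeA replicate 3 lay inside the female range or above it.

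The comparison of male PiC-MeA with male PiC-PrL neurons asks whether neurons with different targets differ within males, and it shares the male PiC-MeA libraries with the previous one. Here too 69 of 73 ribosomal protein genes had a negative log2 change, MeA minus PrL, with a median of -0.88 against 0.16 over all genes tested. In 27 of 73 genes all PiC-MeA libraries lay below all PiC-PrL libraries (37.0%, against 6.23% of all genes), and in 0 of 73 they lay above (19.2% of all genes). By edgeR 0 ribosomal protein genes passed, where 0.603% of all genes did (88 genes). At an unadjusted p under 0.05 there were 17 of 73 (23.3%, against 22.2% of all genes). DESeq2 called 14 of 76 (18.4%, against 12.3% of the 24596 genes it tested) and limma voom 10 of 73 (13.7%, against 17.8% of all genes), and the 10 were all among the 14: Rpl26, Rpl3, Rpl34, Rpl4, Rpl6, Rps14, Rps19, Rps6, Rps9 and Rpsa. Without the filter on low counts in DESeq2, the higher share of members there is not a like comparison. A fit of the 2 male groups alone called 6 of 72 (8.33%, against 7.55% of all genes). When detected genes entered as a covariate the median was -0.22, with 40 of 73 genes negative.

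Rps14, a small subunit protein whose human gene lies in the region lost in a myelodysplastic syndrome with anaemia, had the smallest p. It had 161, 126 and 58.6 CPM in male PiC-MeA and 325, 519, 239 and 532 CPM in male PiC-PrL neurons, without overlap, a log2 change of -1.81 ± 0.43 (adjusted p = 0.0658 by edgeR). Rpl3, which sits near the peptidyl transferase centre, had 217, 196 and 145 CPM in male PiC-MeA and 486, 308, 543 and 997 CPM in male PiC-PrL neurons, a log2 change of -1.65 ± 0.40 (adjusted p = 0.0768 by edgeR). The groups did not overlap in either gene. Rpl26, located near the exit of the peptide tunnel, had 81.9, 79.9 and 39.4 CPM in male PiC-MeA and 197, 285, 161 and 331 CPM in male PiC-PrL neurons, a log2 change of -1.86 ± 0.48 (adjusted p = 0.0790 by edgeR). Rps6, the small subunit protein that is phosphorylated by S6 kinase downstream of mTORC1, had 150, 155 and 45.6 CPM in male PiC-MeA and 293, 334, 309 and 516 CPM in male PiC-PrL neurons, a log2 change of -1.63 ± 0.43 (adjusted p = 0.0790 by edgeR). Again no PiC-MeA library reached a PiC-PrL library. With the covariate for detected genes the change was 0.93 for Rps14 and 0.53 for Rps6.

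Male PiC-MeA neurons were below all other 11 libraries in 12 of the 73 genes (16.4%, against 1.35% of all genes tested) and above all in 0 (6.26% of all genes). The 12 were Rpl21, Rpl26, Rpl27a, Rpl3, Rpl34, Rpl36, Rpl4, Rpl41, Rps16, Rps18, Rps26 and Rps6.

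**Figure D5:**
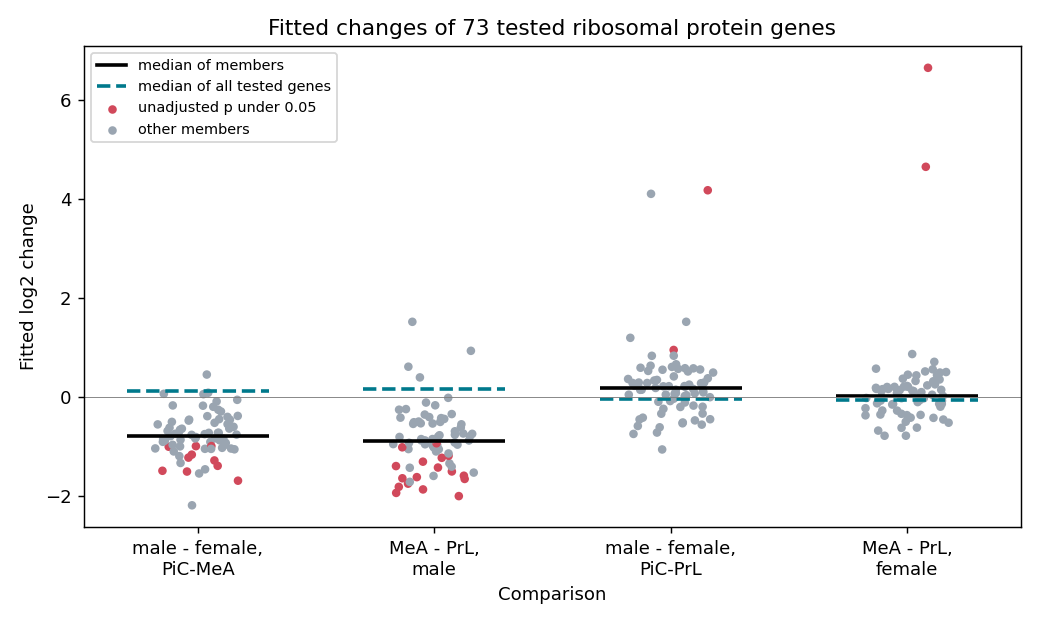
Fitted log2 change of each of the 73 tested ribosomal protein genes (points) in 4 comparisons, with the members' median (solid line) and the median of all tested genes (dashed line). In the pair of comparisons with male PiC-MeA neurons the medians are -0.78 and -0.88, and in the other pair they are 0.19 and 0.03, with Rpl13a among the outlying high points.

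In the comparisons without male PiC-MeA libraries, the medians of the ribosomal protein genes lay 0.21 (sex in PiC-PrL) and 0.09 (projection in females) above those of all genes. Between male and female PiC-PrL neurons 51 of 73 changes were positive, with a median of 0.19 against -0.02 over all genes. That median was 0.069, with 40 positive and 33 negative, without the fourth male PiC-PrL library, 0.12 without the third female PiC-PrL library and 0.31 without the second female PiC-PrL library. All male libraries lay below all female ones in 1 gene, Rpl27a (1.37% of the 73, against 2.02% of all genes), and above in 1 gene, Rps19 (1.37%, against 1.49% of all genes). By edgeR 0 genes passed, where 0.0% of all genes did, with 2 of 73 at an unadjusted p under 0.05 (2.74%, against 14.3% of all genes). DESeq2 and limma voom each called 0, where they called 4.20% and 0.0548% of all genes. Rps9, a small subunit protein, had 262, 324, 171 and 294 CPM in male and 86.7, 201, 164 and 89.0 CPM in female PiC-PrL neurons, with overlap and a log2 change of 0.96 ± 0.45 (adjusted p = 0.337 by edgeR). Rps19, the gene most often mutated in human Diamond-Blackfan anaemia, had 151, 165, 156 and 275 CPM in male and 108, 66.1, 137 and 106 CPM in female PiC-PrL neurons. Rpl27a had 53.1, 76.0, 58.6 and 68.0 CPM in male and 84.6, 127, 109 and 97.9 CPM in female PiC-PrL neurons. Neither pair of groups overlapped, in opposite directions.

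Between female PiC-MeA and female PiC-PrL neurons 39 changes were positive and 34 negative, with a median of 0.03 against -0.06 over all genes. The median ran from -0.17 to 0.12 when 1 library was left out, and was negative without the first or the third female PiC-PrL, the first male PiC-PrL or the first female PiC-MeA library. PiC-MeA libraries lay below all PiC-PrL libraries in Rplp0, Rps14 and Rps6 (4.11% of the 73, against 3.97% of all genes) and above them in 2 genes, of which Rpl13a is one (2.74%, against 4.47% of all genes). By edgeR 0 genes passed, where 0.0% of all genes did, with 2 of 73 at an unadjusted p under 0.05 (2.74%, against 11.1% of all genes). DESeq2 called 1 of 76, Rpl13a (1.32%, against 2.75% of all genes), and limma voom 0 (0.212% of all genes). Rps14 had 208, 214 and 157 CPM in female PiC-MeA and 359, 386, 281 and 295 CPM in female PiC-PrL neurons. Rps6 had 240, 262 and 199 CPM in female PiC-MeA and 329, 380, 267 and 268 CPM in female PiC-PrL neurons. Rps14 and Rps6, but not Rplp0, had also been lower without overlap in male PiC-MeA than in male PiC-PrL neurons, which are other libraries. There this held for 37.0% of the 73.

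Averaged over both sexes, PiC-MeA against PiC-PrL, Rps14 was the ribosomal protein gene that passed. Its log2 change was -1.29 ± 0.29 (adjusted p = 0.0490 by edgeR), and all 6 PiC-MeA libraries (58.6 to 214 CPM) lay below all 8 PiC-PrL libraries (239 to 532 CPM). This is 1 of 73, or 1.37%, where 0.822% of all genes tested passed (120 genes). At an unadjusted p under 0.05 there were 12 of 73 (16.4%, against 17.4% of all genes). DESeq2 called 6 of 76 (7.89%, against 7.99% of all genes) and limma voom 5 of 73 (6.85%, against 7.86% of all genes), and all 5, Rpl13a, Rpl26, Rpl3, Rps14 and Rps6, were among the 6. The call on Rps14 was lost under DESeq2 size factors, under other filters, and without any 1 of 10 libraries, while its change stayed between -1.50 and -1.17 when 1 library was left out. With detected genes as a covariate its change was 0.14. Among the marker lists whose summed levels stand above, Aldoc, an astrocyte enzyme of glycolysis (-1.57 ± 0.31, adjusted p = 0.0248 by edgeR), and Snap25, a neuronal protein of vesicle fusion (-0.86 ± 0.18, adjusted p = 0.0363 by edgeR), also fell in this comparison. Astrocyte markers were negative for 8 of 9 genes (median -1.57) and pan-neuronal markers for 6 of 6 tested (median -0.41), and their part in the Rps14 result was not tested. Next came Rpl26 (-1.27 ± 0.33, adjusted p = 0.0558 by edgeR), Rpl3 (-1.01 ± 0.28, adjusted p = 0.0574 by edgeR) and Rps6 (-1.02 ± 0.30, adjusted p = 0.0655 by edgeR). The median of the 73 was -0.43, against 0.07 over all genes, and 64 were negative.

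Rpl13a, a protein known also for silencing mRNAs after interferon-gamma in human cells, had a positive fitted change in this comparison. It had 4.89, 3.17 and 2.31 CPM in male PiC-MeA, 0.650, 9.23 and 11.2 CPM in female PiC-MeA, 1.99, 2.61, 0 and 0.185 CPM in male PiC-PrL, and 0.241, 0, 0 and 0 CPM in female PiC-PrL libraries. Its fitted fold changes rest on counts near 0, and the limit on covered genes given above applies.

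Averaged over both projections, male minus female, the median was -0.28 against 0.04 over all genes, and 60 of 73 were negative. By edgeR 0 passed, where 0.0137% of all genes did, with 2 at an unadjusted p under 0.05 (2.74%, against 10.7% of all genes). These were Rpl19 (-1.05 ± 0.37, adjusted p = 0.302 by edgeR) and Rpl7a (-1.21 ± 0.44, adjusted p = 0.327 by edgeR). DESeq2 called 2 of 76, Rpl27a and Rpl7a (2.63%, against 3.85% of all genes), and limma voom 0 (0.0205% of all genes). When detected genes entered as a covariate the median was -0.095, with 42 of 73 negative.

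The difference between the sex differences, PiC-MeA minus PiC-PrL, was tested directly. It was negative for 68 of 73 genes, with a median of -0.95 against 0.31 over all genes. By edgeR 0 passed, where 0.0% of all genes did, with 9 at an unadjusted p under 0.05 (12.3%, against 15.6% of all genes). DESeq2 called 3 of 76, among them Rpl34 and Rps19 (3.95%, against 6.28% of all genes), and limma voom 0 (4.40% of all genes). Rps19 had 89.7, 69.8 and 38.8 CPM in male and 165, 132 and 146 CPM in female PiC-MeA neurons, the opposite order to PiC-PrL neurons. Its difference was -1.997 ± 0.69 (adjusted p = 0.174 by edgeR). Rpl6 (-1.72 ± 0.62, adjusted p = 0.185 by edgeR) and Rpl41 (-1.66 ± 0.58, adjusted p = 0.179 by edgeR) followed. A difference of the sex effect between projections was therefore not shown for any single ribosomal protein gene by edgeR.

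Members of known substructures mostly had negative fitted changes too. The stalk, which recruits elongation factors, is built from Rplp0, Rplp1 and Rplp2 on a base that includes Rpl12. Rplp1 had 126, 119 and 61.2 CPM in male and 269, 172 and 156 CPM in female PiC-MeA neurons, without overlap. Rplp0 had 196, 81.5 and 44.6 CPM in male and 150, 146 and 144 CPM in female PiC-MeA neurons, and here the groups overlapped, with male replicate 1 above all female libraries. Rplp2 had 42.9, 36.0 and 25.6 CPM in male and 86.7, 44.9 and 57.6 CPM in female PiC-MeA neurons, without overlap. Rpl12 had 50.5, 33.7 and 46.6 CPM in male and 45.9, 46.5 and 57.0 CPM in female PiC-MeA neurons. None of the 4 reached an unadjusted p under 0.05 in either comparison with male PiC-MeA neurons, and all 4 fitted changes were negative in both.

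Rpl5 and Rpl11 carry the 5S rRNA into the large subunit and, when free, bind Mdm2, the ligase that holds p53 low. Rpl5 had 166, 224 and 109 CPM in male and 303, 306 and 262 CPM in female PiC-MeA neurons, without overlap. Rpl11 had 63.1, 76.2 and 71.7 CPM in male and 118, 111 and 71.8 CPM in female PiC-MeA neurons, where the highest male library exceeded the lowest female one. Rps27a, made as a fusion with ubiquitin, had 48.5, 111 and 92.1 CPM in male and 104, 45.3 and 112 CPM in female PiC-MeA neurons, with full overlap. Among 17 tested genes that are mutated in human Diamond-Blackfan anaemia, 16 were negative between male and female PiC-MeA neurons (median -0.72) and 17 between male PiC-MeA and male PiC-PrL neurons (median -0.54).

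Other named members are given by their range. Rpl4 had 154 to 318 CPM in male PiC-MeA, 324 to 460 CPM in female PiC-MeA, 479 to 844 CPM in male PiC-PrL and 339 to 978 CPM in female PiC-PrL libraries. Rpl9 had 80.4 to 143 CPM in male PiC-MeA, 125 to 169 CPM in female PiC-MeA, 110 to 167 CPM in male PiC-PrL and 134 to 310 CPM in female PiC-PrL libraries. In Rpl4 no male PiC-MeA library reached a female PiC-MeA or a male PiC-PrL library, and in Rpl9 the groups overlapped. Rps15, a small subunit protein near the decoding site, had 29 to 104 CPM in male PiC-MeA, 116 to 152 CPM in female PiC-MeA, 103 to 179 CPM in male PiC-PrL and 106 to 198 CPM in female PiC-PrL libraries. Rpl37 had 48.5 to 68.2 CPM in male PiC-MeA, 67.2 to 83 CPM in female PiC-MeA, 41 to 97 CPM in male PiC-PrL and 61.9 to 101 CPM in female PiC-PrL libraries. Rps21 had 24 to 37.4 CPM in male PiC-MeA, 37.7 to 63.3 CPM in female PiC-MeA, 32.9 to 54.3 CPM in male PiC-PrL and 37.1 to 59.2 CPM in female PiC-PrL libraries. The male PiC-MeA libraries lay below the female PiC-MeA libraries in Rps15 and Rps21, and overlapped them in Rpl37. Rps25 had 69 to 123 CPM in male PiC-MeA, 120 to 123 CPM in female PiC-MeA, 74.8 to 220 CPM in male PiC-PrL and 111 to 149 CPM in female PiC-PrL libraries. Rps20 had 33.5 to 39.7 CPM in male PiC-MeA, 33 to 51.9 CPM in female PiC-MeA, 26.9 to 73.1 CPM in male PiC-PrL and 13.8 to 40.7 CPM in female PiC-PrL libraries. Rps15a had 28 to 59.7 CPM in male PiC-MeA, 42.9 to 91.8 CPM in female PiC-MeA, 34.1 to 85.1 CPM in male PiC-PrL and 31.2 to 74 CPM in female PiC-PrL libraries. In these 3 the male PiC-MeA libraries overlapped every other group. Rpl6l, of the pseudogene type, had 0.433 to 2.19 CPM in male PiC-MeA, 1.36 to 3.17 CPM in female PiC-MeA, 2.85 to 3.83 CPM in male PiC-PrL and 1.85 to 3.07 CPM in female PiC-PrL libraries. Reads of this copy cannot be told apart with certainty from those of Rpl6, of which it is a near relative by name.

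The 4 X-linked members, Rpl10, Rpl36a, Rpl39 and Rps4x, did not share 1 pattern between the sexes. Rpl10, which joins last and allows the subunits to pair, had 142, 155 and 45.9 CPM in male and 248, 211 and 150 CPM in female PiC-MeA neurons, and 242, 217, 173 and 288 CPM in male and 166, 160, 173 and 127 CPM in female PiC-PrL neurons. Rps4x had 93.8, 174 and 138 CPM in male and 222, 113 and 94.2 CPM in female PiC-MeA neurons, and 197, 158, 250 and 384 CPM in male and 78.1, 274, 133 and 138 CPM in female PiC-PrL neurons. The sexes overlapped in Rps4x in both projections. Rpl36a had 23.6, 52.5 and 28.4 CPM in male and 57.0, 27.6 and 50.9 CPM in female PiC-MeA neurons, and had only 5.95 and 3.42 CPM in 2 of the male PiC-PrL libraries.

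Ribosomal proteins outside the naming rule varied in the same comparisons. Fau, the fusion of a ubiquitin-like protein with Rps30, had 100.2, 62.9 and 33.6 CPM in male PiC-MeA, 217, 188 and 133 CPM in female PiC-MeA and 222, 210.5, 184 and 320.2 CPM in male PiC-PrL neurons. Male PiC-MeA libraries lay below both (log2 change against male PiC-PrL -1.84 ± 0.51, adjusted p = 0.0790 by edgeR). Rps3a1 overlapped, with 114, 202 and 87.0 CPM in male and 155, 171 and 141 CPM in female PiC-MeA neurons. Rack1, a scaffold protein on the small subunit, had 56.6, 48.7 and 19.6 CPM in male PiC-MeA, 160, 203 and 164 CPM in female PiC-MeA and 215, 146, 159 and 94.2 CPM in male PiC-PrL neurons, without overlap. Rpl36al (59 counts in all, 92.4% of its span inside other genes) was low and covered.

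Other genes of protein synthesis were described by lists. Between male and female PiC-MeA neurons 63 of 70 mitochondrial ribosomal protein genes were negative (median -0.85), as were 79 of 108 ribosome assembly factors (median -0.69) and 28 of 37 initiation factors (median -0.65). Between male PiC-MeA and male PiC-PrL neurons the same lists had 65 of 70 (median -1.10), 76 of 108 (median -0.77) and 29 of 37 (median -0.94) negative. Elongation and termination factors were nearer to even, with 9 of 15 negative in each comparison (medians -0.25 and -0.54). The medians of mTORC1 and TOP mRNA regulators (0.04 and -0.16) and of transcription factors of ribosomal protein genes (0.27 and 0.24) lay closer to those of all genes (0.12 and 0.16).

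Among all these lists few single genes passed. Wdr18, part of a complex that matures the large subunit, was lower in male PiC-MeA than in male PiC-PrL neurons. It had 73.6, 30.1 and 13.6 CPM against 361, 341, 352 and 341 CPM, a log2 change of -3.16 ± 0.58 (adjusted p = 0.0209 by edgeR). Female PiC-MeA libraries had 154, 109 and 134 CPM, and female PiC-PrL libraries 157, 116, 63.0 and 84.1 CPM. Male PiC-PrL libraries thus lay above all others in Wdr18, and male PiC-MeA libraries overlapped female PiC-PrL libraries. Gnl3l, a nucleolar GTPase, fell in PiC-MeA neurons averaged over both sexes (-1.80 ± 0.34, adjusted p = 0.0190 by edgeR). Eef1a1, which brings aminoacyl-tRNA to the ribosome, had 512, 528 and 270 CPM in male PiC-MeA neurons and 971, 964 and 745 CPM in female PiC-MeA neurons, without overlap (log2 change -1.03 ± 0.33, adjusted p = 0.298 by edgeR). Beside all these results stand more detected genes, higher olfactory receptor counts and lower total counts in male PiC-MeA libraries. In all 3 of them the mitochondrial share was also higher than in female PiC-MeA libraries. The part of these differences was not tested.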

How the data were processed

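The authors deposited raw counts per gene, 1 column per library, not pooled and not normalised. Per the submitters' processing notes, reads were handled with Trimmomatic 0.39, HISAT2 2.2.1 and SAMtools, counted with featureCounts 2.0.1, and placed on mm10. Annotation release, strand setting and treatment of shared reads: not given in the sources used here. Identifiers of 55141 of 55401 genes matched GENCODE M21, which gave spans and exon lengths.

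Genes were kept by filterByExpr (minimum count 10, minimum total 15), which left 14599, and edgeR 4.0.16 (R 4.3.3) was run with TMM scaling and its robust quasi-likelihood test, 1 mean per group and 7 contrasts. Adjusted p-values are Benjamini-Hochberg over all genes tested, with a threshold of 0.05. CPM of genes use TMM-scaled totals. SE was derived from the log2 change and the quasi-likelihood F. TPM used exon lengths. The method was tested on simulated data.

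Members and lists were chosen with earlier results of these data known. Named were members with the 4 smallest p per direction and contrast, X-linked, related, highest, lowest, steadiest, most variable and low members, stalk and 5S particle proteins, and genes outside the rule. A few genes that the rule names are not reported here. Of the other lists, genes that passed were chosen for naming after their values were seen. After values were seen, log2 changes were printed only for those members with an unadjusted p under 0.05. Alternatives were DESeq2 1.42.0 (size factors and Wald test), voom of limma 3.58.1, other filters, no robust option, only the groups compared, detected genes as a covariate, a replicate block, no mitochondrial genes and each library left out.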

Additional observations from a re-analysis of the deposited data

Results flagged for a closer look

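Examined were 82 combinations of a measure and a group with 4 libraries. Measures were named genes with enough counts, the ribosomal protein share and the small subunit share. In 6 combinations, all of them genes, 1 library stood far from the other 3 of its group, and chance flags about 1 in 20. Rpl4 had 978 CPM in female PiC-PrL replicate 2, against 339 to 445 CPM in the other female PiC-PrL libraries. Rplp2 had 110 CPM in the same library, against 39.0 to 50.2 CPM. Rpl15 had 292 CPM in male PiC-PrL replicate 4, against 233 to 239 CPM in the other male PiC-PrL libraries, and Rps19 had 275 CPM there, against 151 to 165 CPM. Rpl22 had 57.0 CPM in male PiC-PrL replicate 2, against 0.831 to 9.9999 CPM. Rpl13a had 0.241 CPM in female PiC-PrL replicate 1 and 0 in the other 3.

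Among members that were too low to be tested, the highest values were 27 counts of Rpl3l in male PiC-MeA replicate 2 and 4 counts of Rps10 in female PiC-MeA replicate 3.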

How the results depend on the processing

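Counts of ribosomal protein genes called depended on the tool and the samples fitted. The DESeq2 Wald test called 3 for sex in PiC-MeA, 1 for projection in females, 14 for projection in males, 2 for sex averaged over projections, 6 for projection averaged over sexes and 3 for the difference between sex differences. Limma voom called 2, 0, 10, 0, 5 and 0 in the same order. The shares of all genes called by each tool stand beside these counts in the text above, and only for projection in males was the DESeq2 share of members the higher one. The DESeq2 shares of all genes are over 24596 genes without the filter on low counts, so that ranking is not a like comparison. For projection in males 6 were called with only the groups compared, 2 without mitochondrial genes and 0 to 2 with 1 library left out. For projection averaged over sexes 0 were called with DESeq2 size factors, without a filter, with 10 counts in 7 libraries, without the robust option and with the covariate, and 0 to 1 with 1 library left out.

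The number of detected genes separates male PiC-MeA from the other libraries without overlap, so a fit can hardly tell it from the group. With it as covariate, medians were -0.21 (sex in PiC-MeA), -0.22 (projection in males), -0.095 (sex averaged), -0.074 (projection averaged) and -0.46 (difference between sex differences). Under it Rpl41 and Rpl6 came to 0.10 and 0.33 for sex in PiC-MeA and to 0.033 and 0.16 for the difference between sex differences. Rps14 and Rps6 came to 0.93 and 0.53 for projection in males and to 0.14 and 0.11 averaged over sexes. The cause was not tested. With mitochondrial genes out of the total, the mean share in female PiC-PrL libraries was 0.885%.

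Libraries with the same replicate number did not deviate alike (correlations of deviations over 19 pairs from -0.04 to 0.04). Tubes of few cells vary widely, so this check may miss a pairing. With a replicate block 0 genes were called for projection averaged over sexes, and medians were -0.83 for sex in PiC-MeA and -0.84 for projection in males.

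Added after seeing the data, dropping the male PiC-MeA libraries from the fit gave medians of 0.20 (sex in PiC-PrL) and 0.05 (projection in females). Genes with under 50% of their span inside other genes gave -0.88 (sex in PiC-MeA) and -0.95 (projection in males).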
